A study of Mus musculus with 6 samples.

Results

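The genes described here build the muscle side of the neuromuscular junction. They are the 5 genes of the muscle-type nicotinic acetylcholine receptor (Chrna1, Chrnb1, Chrnd, Chrng and Chrne), 4 genes that cluster the receptor under the nerve ending (Musk, Lrp4, Dok7 and Rapsn) and the gene of acetylcholinesterase (Ache). They were chosen by symbol, with earlier results of these data known, and all 10 were found among the 41709 genes of the expression table. In the study, tibialis anterior (TA) muscles of male C57BL/6J mice were electroporated with plasmids for Flag-tagged mouse Lrpprc, an RNA-binding protein of mitochondria and nucleus. One TA received the wild-type form (LrpprcWT, n = 3 libraries) and the contralateral TA received LrpprcP27A (n = 3 libraries), in which the proline that is otherwise dihydroxylated is an alanine. RNA of the whole muscle was sequenced 14 days after electroporation. Both groups thus carried a plasmid with a viral promoter (pCMV6), which enters only a share of the fibres, and neither an untreated nor an empty-vector library was analysed here. The age of the mice used for sequencing was not stated outright.

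Motor nerves release acetylcholine, which opens the receptor, a ring of 5 subunits in the membrane of the muscle fibre. Fetal and denervated muscle builds the receptor with the gamma subunit (Chrng), and innervated adult muscle exchanges it for the epsilon subunit (Chrne), while the alpha, beta and delta subunits are shared by both forms. Agrin from the nerve binds LRP4, which activates the kinase MuSK with the help of DOK7, and rapsyn anchors the receptor. Electrical activity keeps receptor genes silent in nuclei away from the synapse, and myogenin and its relatives switch them on through E-boxes (CANNTG), whereas synaptic nuclei use the N-box, which ETS factors bind.

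The 250 bases before the transcription start are shown for the 4 subunit genes that had such a window. E-boxes and the N-box are the elements through which these genes are known to be read. The sequences are RefSeq windows on GRCm38.p6, an older build than the GRCm39 of the expression values, and are written 5′ to 3′ on the strand of the gene. Capitals mark each E-box (CANNTG) and, in Chrne alone among the 4, the core of the N-box (CCGGAA). Chrna1 lies at chr2:73580339-73580588 (minus strand), Chrnb1 at chr11:69795938-69796187 (minus strand), Chrng at chr1:87205561-87205810 (plus strand) and Chrne at chr11:70619195-70619444 (minus strand).
Chrna1: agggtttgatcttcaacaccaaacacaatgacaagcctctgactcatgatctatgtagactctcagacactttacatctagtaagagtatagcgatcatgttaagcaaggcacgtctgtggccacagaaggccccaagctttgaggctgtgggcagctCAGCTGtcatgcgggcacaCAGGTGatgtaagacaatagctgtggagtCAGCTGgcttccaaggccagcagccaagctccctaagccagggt
Chrnb1: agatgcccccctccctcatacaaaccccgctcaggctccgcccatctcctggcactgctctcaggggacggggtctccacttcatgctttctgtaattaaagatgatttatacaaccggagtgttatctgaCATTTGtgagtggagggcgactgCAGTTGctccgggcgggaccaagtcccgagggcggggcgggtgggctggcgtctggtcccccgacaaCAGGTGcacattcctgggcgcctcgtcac
Chrng: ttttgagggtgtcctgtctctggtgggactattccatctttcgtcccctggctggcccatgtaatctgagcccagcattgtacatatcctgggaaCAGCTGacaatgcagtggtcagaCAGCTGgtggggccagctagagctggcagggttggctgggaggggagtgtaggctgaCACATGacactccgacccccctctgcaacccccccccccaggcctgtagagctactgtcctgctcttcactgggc
Chrne: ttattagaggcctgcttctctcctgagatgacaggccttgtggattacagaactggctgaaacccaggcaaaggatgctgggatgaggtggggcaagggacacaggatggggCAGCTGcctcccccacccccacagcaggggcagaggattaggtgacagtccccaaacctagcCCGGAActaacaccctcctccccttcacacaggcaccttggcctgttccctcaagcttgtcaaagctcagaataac
Both strands were searched, and CANNTG and CAGCTG read the same on either strand. Chrna1, Chrnb1 and Chrng each held 3 E-boxes, a number reached by 12.21% of the 32841 windows of the table. In Chrna1 and Chrng 2 of the 3 had the letters CAGCTG, which occurred at least 2 times in 1.26% of all windows. The window of Chrne held 1 E-box, also with the letters CAGCTG (66.23% of windows held at least 1 E-box), and 1 N-box core (12.03%). The N-box core began 76 bases before the start. Of the other members, the window of Musk, whose change did not pass the test described below, also held 3 E-boxes. That of Ache held 1, and of the 2 windows of Dok7 the first held 1 and the second 0. Chrnd, Lrp4 and Rapsn had no entry in that table. A match describes letters and does not show that a factor binds there. Whether these elements bear on the changes below was not tested.

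Expression was given as TPM, a gene's length-corrected share of all transcripts in a library, which sums to 1000000 in each library and leaves the sequencing depth and the counting error unknown. limma was fitted to log2(TPM + 1) of the 11611 genes whose TPM averaged at least 1 over the 6 libraries, and a gene was called at a Benjamini-Hochberg adjusted p under 0.05. Because of the added 1, fold changes of weakly expressed genes come out too small. On it the median log2 fold change of all tested genes was -0.32, and after median-of-ratios scaling, which sets the typical gene equal between libraries, it was -0.0047. Genes of the mitochondrial genome and ribosomal RNA took between 37.4% and 50.6% of the TPM of a library. The LrpprcWT library of replicate 2 held the lowest LrpprcWT value of all 10 members on the TPM scale, and of 4 of the 10 after median-of-ratios scaling. Lrpprc itself, of which endogenous and plasmid RNA cannot be told apart in this table, was at 35.1, 37.0 and 75.2 TPM in LrpprcWT and at 26.9, 29.7 and 26.0 TPM in LrpprcP27A. On the deposited scale these groups did not overlap, as was so for 47.6% of all tested genes in that direction. Median-of-ratios scaling divides the LrpprcWT libraries by 1.22, 0.969 and 1.25 and the LrpprcP27A libraries by 0.893, 0.847 and 0.895. On that scale the Lrpprc values of the groups overlap. The paper reports similar Lrpprc mRNA in both groups by qRT-PCR, which was normalized to Hprt rather than to all transcripts. The LrpprcWT library of replicate 3 also held the highest LrpprcWT value of 7 of the 10 members. Whether the level of Lrpprc bears on the members was not tested.

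The receptor subunits Chrna1, Chrnb1, Chrnd and Chrng fell with LrpprcP27A, and did so under every scaling of the libraries that was tried. The adult subunit Chrne was lower by much less and did not pass the test. Of the clustering genes, Dok7 passed narrowly on the deposited scale only, and Rapsn was nearly level. Here and below, counts of genes that fell or rose are of genes called. In all 5 of the 10 genes fell and 0 rose, where 23.3% of all tested genes fell and 1.34% rose. On the deposited scale the log2 fold change was below 0 for all 10 genes, and for 88% of all tested genes. With median-of-ratios scaling 4 of the 10 fell and 0 rose (6.03% and 5.25% of all tested genes). The median log2 fold change of the 10 genes was -0.62 on the deposited scale and -0.33 after median-of-ratios scaling. The calls were less stable to other choices. Without the LrpprcWT library of replicate 3 only Chrna1 was called, and without a filter, without moderation or with the Kruskal-Wallis test 0 of the 10 were. Chrng passed the filter only through the LrpprcWT libraries.

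**Figure D1:**
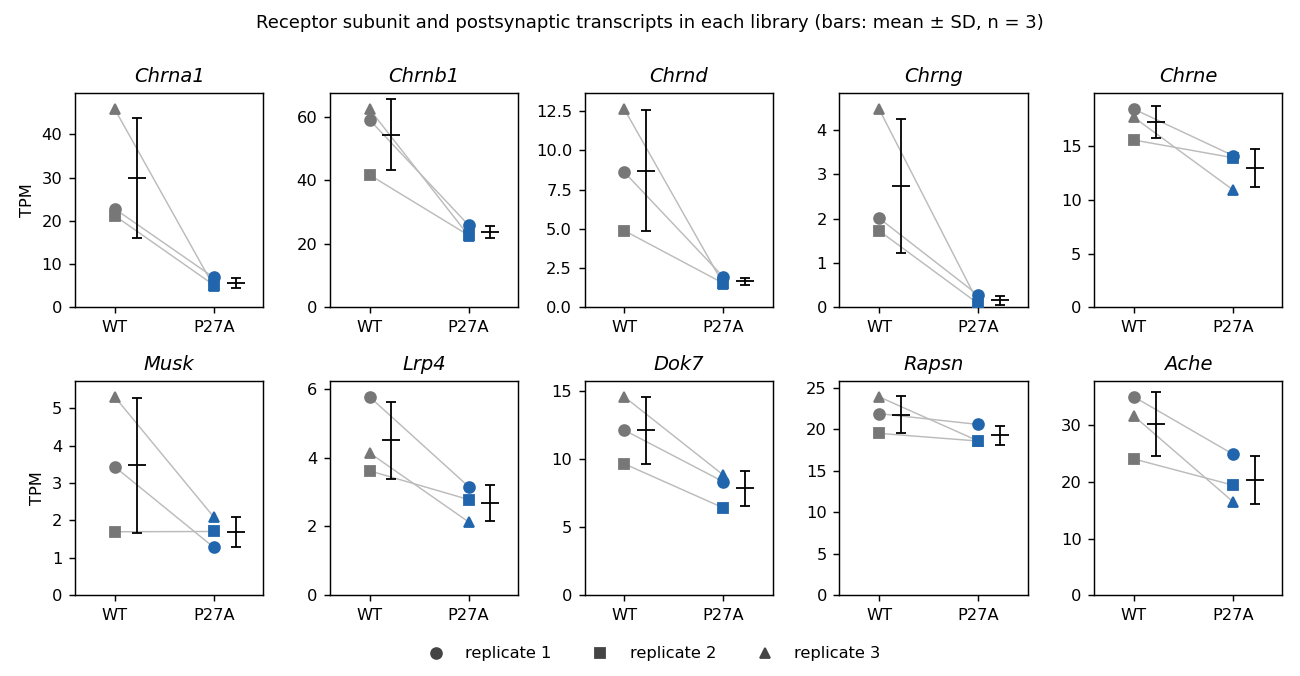
TPM of each of the 10 genes (vertical axis, from 0) in the LrpprcWT (grey) and LrpprcP27A (blue) muscles, with 1 point per library, grey lines joining libraries of the same replicate number, and bars for mean ± SD (n = 3). Chrna1, Chrnd and Chrng drop to small values in all 3 LrpprcP27A libraries, whereas the points of Rapsn and of Musk overlap between groups.

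Chrna1 encodes the alpha subunit, which binds acetylcholine and is present in every form of the muscle receptor. Its level was 22.8, 21.2 and 45.9 TPM in the LrpprcWT libraries of replicates 1, 2 and 3 and 6.92, 5.17 and 4.87 TPM in the LrpprcP27A libraries. All LrpprcP27A values lay far below the lowest LrpprcWT value, and replicate 3 stood highest among the LrpprcWT libraries. The means were 30.0 ± 13.8 and 5.66 ± 1.11 TPM (SD, n = 3 each), so that 18.9% of the LrpprcWT level was present. The log2 fold change was -2.14 (SE 0.27, 95% confidence interval -2.76 to -1.53, limma adjusted p = 0.0100), the 37th lowest of the 11611 genes, and -1.80 after median-of-ratios scaling (adjusted p = 0.0226).

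Chrnd encodes the delta subunit, which forms 1 of the 2 binding sites for acetylcholine with the alpha subunit. It was at 8.61, 4.89 and 12.6 TPM with LrpprcWT and at 1.94, 1.53 and 1.48 TPM with LrpprcP27A. The groups did not overlap, and the LrpprcP27A libraries lay close together. The fold change was -1.79 on the log2 scale (SE 0.27, limma adjusted p = 0.0123). Chrna1 and Chrnd dropped by nearly the same factor, since the ratio of LrpprcWT to LrpprcP27A means was 5.30 for Chrna1 and 5.27 for Chrnd. Within a library Chrna1 stood at 265%, 434% and 363% of Chrnd with LrpprcWT and at 357%, 337% and 328% with LrpprcP27A, ranges that overlap.

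Chrnb1, the beta subunit gene, was the most abundant of the 5 in both groups. It was at 59.1, 41.7 and 62.4 TPM with LrpprcWT and at 25.9, 22.7 and 22.6 TPM with LrpprcP27A, without overlap. It fell by 1.14 on the log2 scale (SE 0.16, limma adjusted p = 0.0116), to 43.6% of the LrpprcWT mean. Its decrease was thus smaller than that of Chrna1, and Chrna1 stood at 38.6%, 50.9% and 73.5% of Chrnb1 with LrpprcWT and at 26.7%, 22.8% and 21.5% with LrpprcP27A.

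Chrng, the gene of the fetal gamma subunit, was the least abundant member. Its level was 2.01, 1.73 and 4.47 TPM with LrpprcWT and 0.277, 0.0857 and 0.110 TPM with LrpprcP27A. The lowest LrpprcWT library exceeded the highest LrpprcP27A library severalfold, and the ratio of the means was 17.4. With 1 library left out, this ratio ranged from 11.9 (without LrpprcWT replicate 3) to 28.0 (without LrpprcP27A replicate 1). The log2 fold change was -1.62 (SE 0.25, limma adjusted p = 0.0125). Chrng passed the filter on a mean TPM of at least 1 only through the LrpprcWT libraries, and the pseudocount holds back its fold change, so its place among the other subunits on the log2 scale cannot be compared directly. Chrng lies 4583 bases downstream of Chrnd on the same strand of chromosome 1 (GRCm39, Chrnd 87118306 to 87127795 and Chrng 87132379 to 87140416), and the annotated genes do not overlap.

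Chrne, the gene of the epsilon subunit of adult muscle, had the smallest change of the 5 subunit genes on either scale. It was at 18.4, 15.6 and 17.7 TPM with LrpprcWT and at 14.1, 13.9 and 10.9 TPM with LrpprcP27A. The groups did not overlap, but the gap between them was small. The log2 fold change of -0.39 (SE 0.14) did not pass (limma adjusted p = 0.0671), and 39.7% of all tested genes had a lower one. After median-of-ratios scaling it was -0.03 with a 95% confidence interval of -0.32 to 0.25 (limma adjusted p = 0.866), and the groups overlapped.

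A plain ratio of 2 subunits within a library does not depend on how libraries are scaled, although adding 1 to both values, as in the test of Chrng against Chrne, brings back some dependence. Chrng stood at 10.9%, 11.1% and 25.3% of Chrne with LrpprcWT and at 1.97%, 0.616% and 1.01% with LrpprcP27A, without overlap. The difference in log2((Chrng TPM + 1)/(Chrne TPM + 1)) was -1.24 (means -2.35 ± 0.51 and -3.59 ± 0.18, SD, n = 3 each; two-sided exact permutation test, p = 0.1, the smallest that 3 against 3 allow), and -3.00 with a pseudocount of 0.1 in place of 1. Chrnd stood at 46.8%, 31.4% and 71.5% of Chrne with LrpprcWT and at 13.7%, 11.0% and 13.6% with LrpprcP27A. Chrna1 exceeded Chrne in every LrpprcWT library (124%, 136% and 260% of it) and stayed below it in every LrpprcP27A library (49.1%, 37.2% and 44.6%). Chrnb1 remained above Chrne throughout, at 321%, 268% and 354% with LrpprcWT and at 184%, 163% and 207% with LrpprcP27A.

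**Figure D2:**
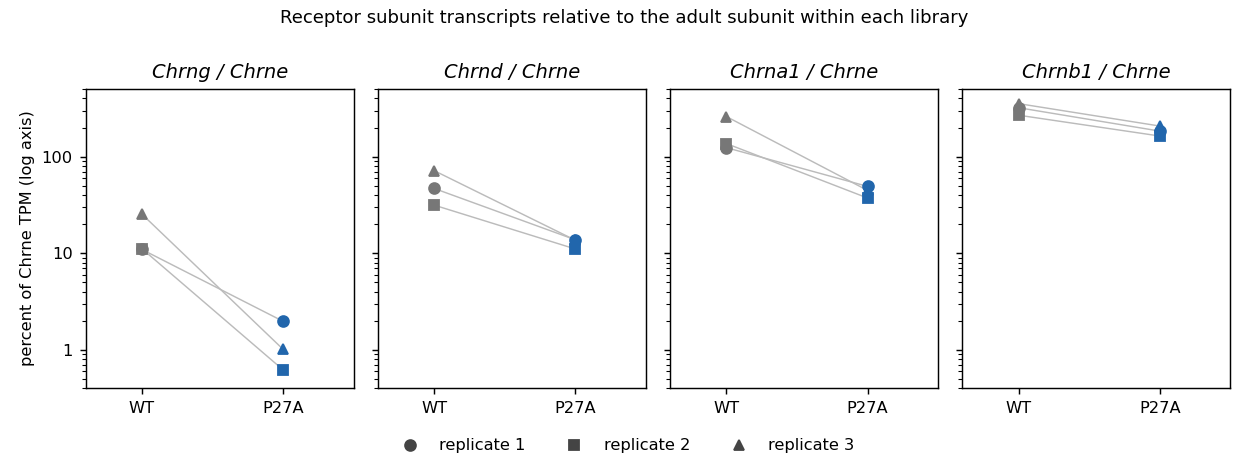
TPM of Chrng, Chrnd, Chrna1 and Chrnb1 as a percentage of Chrne TPM (logarithmic vertical axis) in each LrpprcWT (grey) and LrpprcP27A (blue) library, with lines joining libraries of the same replicate number. In all 4 panels the 3 LrpprcP27A points lie below the 3 LrpprcWT points, and Chrng has the widest gap, from at least 10.9% to at most 1.97%.

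The calls of 3 subunits depended on 1 library, while their fold changes kept their direction. Without the LrpprcWT library of replicate 3, the log2 fold change was -1.04 for Chrnb1 (limma adjusted p = 0.0802), -1.51 for Chrnd (0.0796) and -1.31 for Chrng (0.0505), and Chrna1 was the 1 member still called (adjusted p = 0.0335), where 0.129% of all tested genes fell. Without the LrpprcWT library of replicate 2, 9 of the 10 members and 59.5% of all tested genes fell.

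Musk encodes the receptor tyrosine kinase that starts clustering. It was at 3.43, 1.69 and 5.30 TPM with LrpprcWT and at 1.28, 1.70 and 2.09 TPM with LrpprcP27A. The groups overlapped, because the LrpprcWT library of replicate 2 lay within the LrpprcP27A range. The log2 fold change was -0.66 (SE 0.28, limma adjusted p = 0.101), without that library it was -0.99 (adjusted p = 0.00773), and without the LrpprcWT library of replicate 3 it was -0.37 (adjusted p = 0.323). After median-of-ratios scaling of all 6 libraries it was -0.39 (adjusted p = 0.287).

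Lrp4, which encodes the agrin receptor that partners MuSK, was at 5.77, 3.62 and 4.14 TPM with LrpprcWT and at 3.16, 2.78 and 2.13 TPM with LrpprcP27A. The groups did not overlap, and the log2 fold change of -0.57 (SE 0.19) missed the threshold (limma adjusted p = 0.0531). After median-of-ratios scaling the change of Lrp4 was -0.28 (adjusted p = 0.246), and the groups overlapped. Dok7, the gene of the adaptor that activates MuSK from inside the fibre, was at 12.1, 9.64 and 14.6 TPM with LrpprcWT and at 8.33, 6.40 and 8.81 TPM with LrpprcP27A. Dok7 fell by 0.56 on the log2 scale (SE 0.18, limma adjusted p = 0.0494), but with median-of-ratios scaling its change was -0.22 (adjusted p = 0.232). The call of Dok7 also ended when any library other than the LrpprcWT library of replicate 2 was left out (adjusted p from 0.0807 to 0.179).

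Rapsn encodes rapsyn, the protein that ties the receptor to the cytoskeleton in fixed proportion. It was at 21.9, 19.5 and 23.9 TPM with LrpprcWT and at 20.6, 18.6 and 18.6 TPM with LrpprcP27A, and the groups overlapped. Its log2 fold change was -0.17 (SE 0.12, limma adjusted p = 0.286) on the deposited scale and 0.19 (adjusted p = 0.152) after median-of-ratios scaling, so that its direction depended on the scaling. Ache, the gene of the enzyme that splits acetylcholine in the cleft, was at 35.0, 24.1 and 31.6 TPM with LrpprcWT and at 24.9, 19.4 and 16.5 TPM with LrpprcP27A. The ranges overlapped slightly, and the log2 fold change was -0.56 (SE 0.18, limma adjusted p = 0.0546). After median-of-ratios scaling that of Ache was -0.20 (adjusted p = 0.386).

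**Figure D3:**
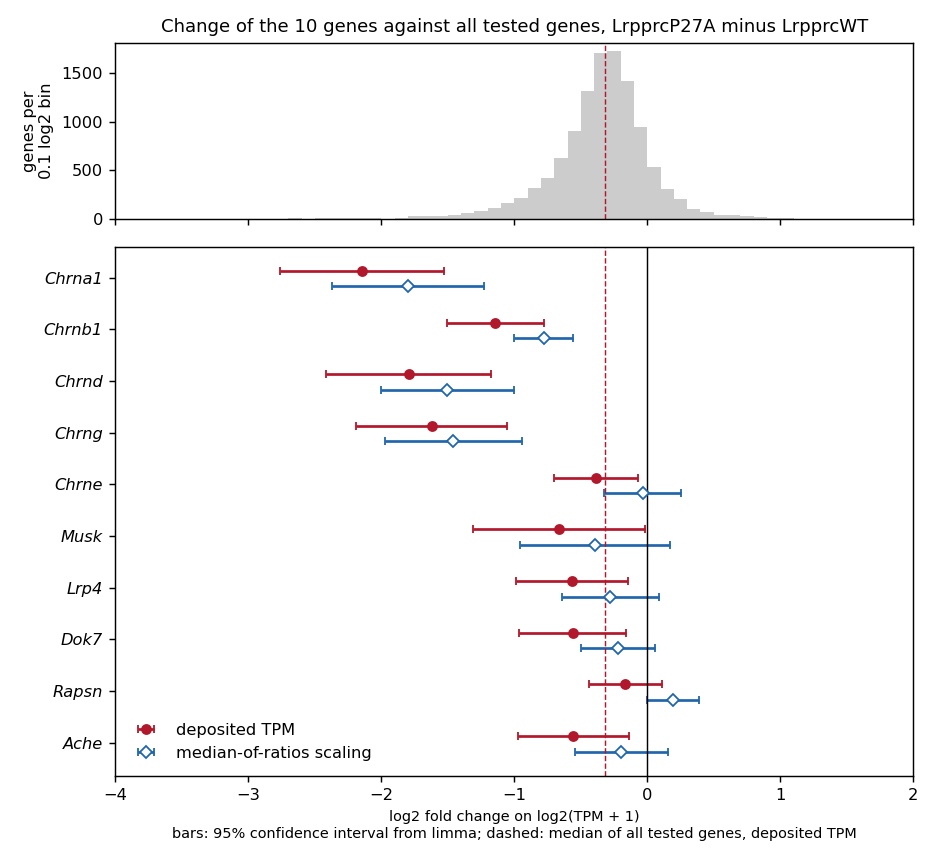
Lower panel, log2 fold change (LrpprcP27A minus LrpprcWT on log2(TPM + 1)) of each gene with its 95% confidence interval from limma, for deposited TPM (red circles) and after median-of-ratios scaling (open blue diamonds). The upper panel counts all 11611 tested genes by fold change on the deposited scale, with their median of -0.32 as a dashed line. Chrna1, Chrnd, Chrng and Chrnb1 lie to the left of most genes on either scale, and the other 6 genes lie near the bulk.

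Libraries of the groups that carry the same number were also compared as pairs, since contralateral muscles were electroporated, although the labels do not state that the number is the mouse. With the replicate number as a block, 9 of the 10 genes fell and 0 rose, where 48.4% of all tested genes fell and 2.69% rose. The genes added by the block were Chrne (adjusted p = 0.0214), Musk (0.00486), Lrp4 (0.00317) and Ache (0.00256), and Rapsn remained uncalled (0.264). With the block and median-of-ratios scaling together, 4 genes fell and 0 rose (15.8% and 13.4% of all tested genes). All 3 LrpprcP27A values lay below all 3 LrpprcWT values for 7 of the 10 genes, and for 47.6% of all tested genes.

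The order of the members by level differed between groups. With LrpprcWT it ran Chrnb1, Ache, Chrna1, Rapsn, Chrne, Dok7, Chrnd, Lrp4, Musk and Chrng, with means from 54.4 ± 11.1 to 2.74 ± 1.51 TPM. Neighbours in that order overlapped in their ranges except Chrnb1 and Ache, Rapsn and Chrne, and Chrne and Dok7. With LrpprcP27A, Chrna1 had moved from the third place to the sixth, behind Dok7 (7.85 ± 1.27 TPM), and Chrnd (1.65 ± 0.249 TPM) had moved behind Musk (1.69 ± 0.406 TPM). The ranges of Chrna1 and Dok7, and of Musk and Chrnd, overlapped there. The 11 nicotinic subunits of neuronal type were nearly absent from both groups, with 4 listed at 0 in all libraries and the highest value at 0.811 TPM (Chrna9).

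Further genes of the junction were listed by function, of which Nrg1 was not analysed here, 58 were in the table and 55 passed the filter. Of these 55, 22 (40.0%) fell and 2 (3.64%) rose on the deposited scale, where 23.3% and 1.34% of all tested genes did. After median-of-ratios scaling 8 of the 55 fell and 3 rose, where 6.03% and 5.25% of all tested genes did. The share of all genes applies to each list below, and a list with a share near it does not stand out from them. The lists were chosen with earlier results of these data known, so a share above that of all genes is no test of a list. The median log2 fold change of the 55 genes was -0.48, and -0.16 after median-of-ratios scaling.

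The list of activity-dependent regulators and extrasynaptic genes held the largest changes, with 5 of its 9 tested genes lower and 0 higher. Myog, the gene of myogenin, fell most. It was at 34.4, 22.0 and 53.1 TPM with LrpprcWT and at 9.20, 3.51 and 6.16 TPM with LrpprcP27A (log2 fold change -2.35, SE 0.35, limma adjusted p = 0.0116). Ncam1, a cell adhesion molecule that spreads over denervated fibres, fell by 1.51, and Runx1, a transcription factor induced by denervation, fell by 1.48 on the log2 scale. Gadd45a, a stress gene induced by denervation, fell by 1.29, and Myf6, a relative of myogenin of mature fibres, fell by 0.56. All but Myf6 also fell after median-of-ratios scaling. Runx1, at 4.37 ± 2.21 TPM with LrpprcWT and 0.817 ± 0.188 TPM with LrpprcP27A, passed the filter only through the LrpprcWT libraries. Without the LrpprcWT library of replicate 3, 0 of the further junction genes were called lower, where 0.129% of all tested genes were. Myog then had a limma adjusted p of 0.0828. Hdac4, a deacetylase that links nerve activity to myogenin, was at 6.35 ± 1.38 and 4.98 ± 0.453 TPM (limma adjusted p = 0.207). Dach2, a corepressor linked to nerve activity, lay under the filter in both groups (0.247 ± 0.148 and 0.225 ± 0.0850 TPM).

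**Figure D4:**
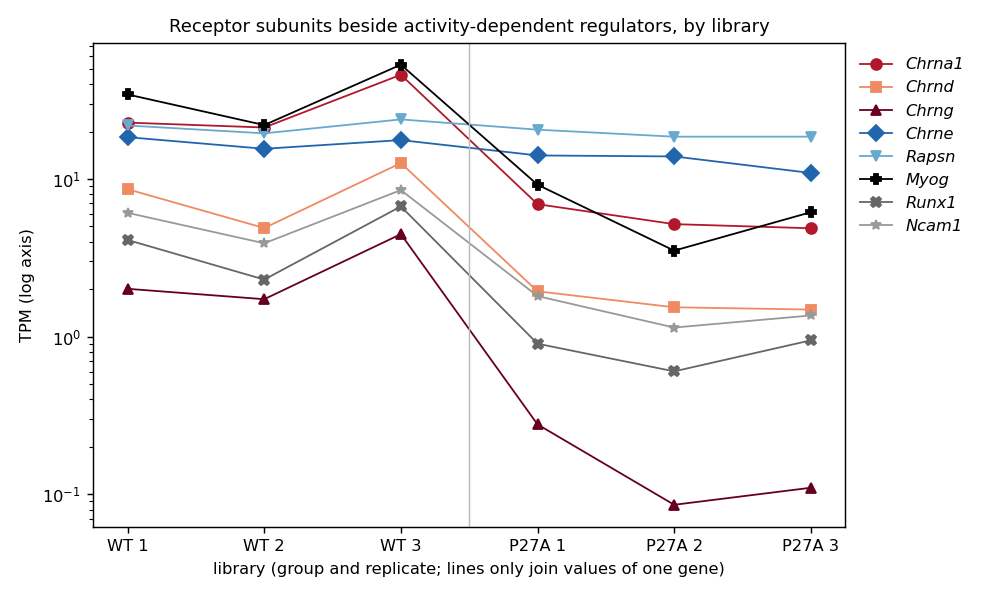
TPM (logarithmic vertical axis) of Chrna1, Chrnd, Chrng, Chrne and Rapsn and of the activity-dependent genes Myog, Runx1 and Ncam1 in each library, with lines that only join the values of 1 gene. Myog, Runx1, Ncam1, Chrna1, Chrnd and Chrng have their highest value in the LrpprcWT library of replicate 3 and their 3 lowest values in the LrpprcP27A libraries, while Chrne and Rapsn vary less.

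Among ligands and synaptic matrix genes, 4 of 7 fell and 0 rose. Agrn, the gene of agrin, fell from 9.77 ± 3.61 to 4.96 ± 0.954 TPM (log2 fold change -0.81, limma adjusted p = 0.0449). Colq, whose collagen tail anchors acetylcholinesterase, fell by 0.62 (adjusted p = 0.0493), and Nid2, a synaptic basement membrane protein, fell by 1.18 (adjusted p = 0.0448). Lama4, a laminin chain of the synaptic basement membrane, was the fourth, and none of these 4 was called after median-of-ratios scaling. Among receptor kinases and downstream signalling genes, 7 of 19 fell and 0 rose, with the largest decrease in Fyn, a Src-family kinase (11.8 ± 4.35 to 5.29 ± 1.62 TPM, adjusted p = 0.0401). After median-of-ratios scaling 4 of the 19 fell, Fyn was not called (adjusted p = 0.0989), and Pdzrn3, a ubiquitin ligase that acts on MuSK, rose (adjusted p = 0.0360). Among scaffold and membrane genes, 3 of 12 fell (25%, close to the 23.3% of all tested genes) and 2 rose. Sntb2, a syntrophin, fell by 0.87 (adjusted p = 0.0455), as did Dtna and Dag1 by less, and none of these 3 was called after median-of-ratios scaling. Sorbs2, a cytoskeletal adaptor, rose by 0.57 (adjusted p = 0.0441), and Scn4a, the sodium channel of adult muscle, rose from 103 ± 10.5 to 138 ± 7.98 TPM (log2 fold change 0.42, adjusted p = 0.0336). Sorbs2 and Scn4a also rose after median-of-ratios scaling.

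Of the genes tied to transcription in synaptic nuclei, 3 of 8 (37.5%, against 23.3% of all tested genes) fell and 0 rose. Prkar1a, a regulatory subunit of protein kinase A, fell by 0.72 (limma adjusted p = 0.0249), and Etv5, an ETS factor of synaptic nuclei, fell from 11.2 ± 1.82 to 7.18 ± 0.658 TPM (log2 fold change -0.57, adjusted p = 0.0323). Ufsp1 was the third. After median-of-ratios scaling 0 of the 8 were called, and Etv5 stood at -0.24 (adjusted p = 0.105).

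**Figure D5:**
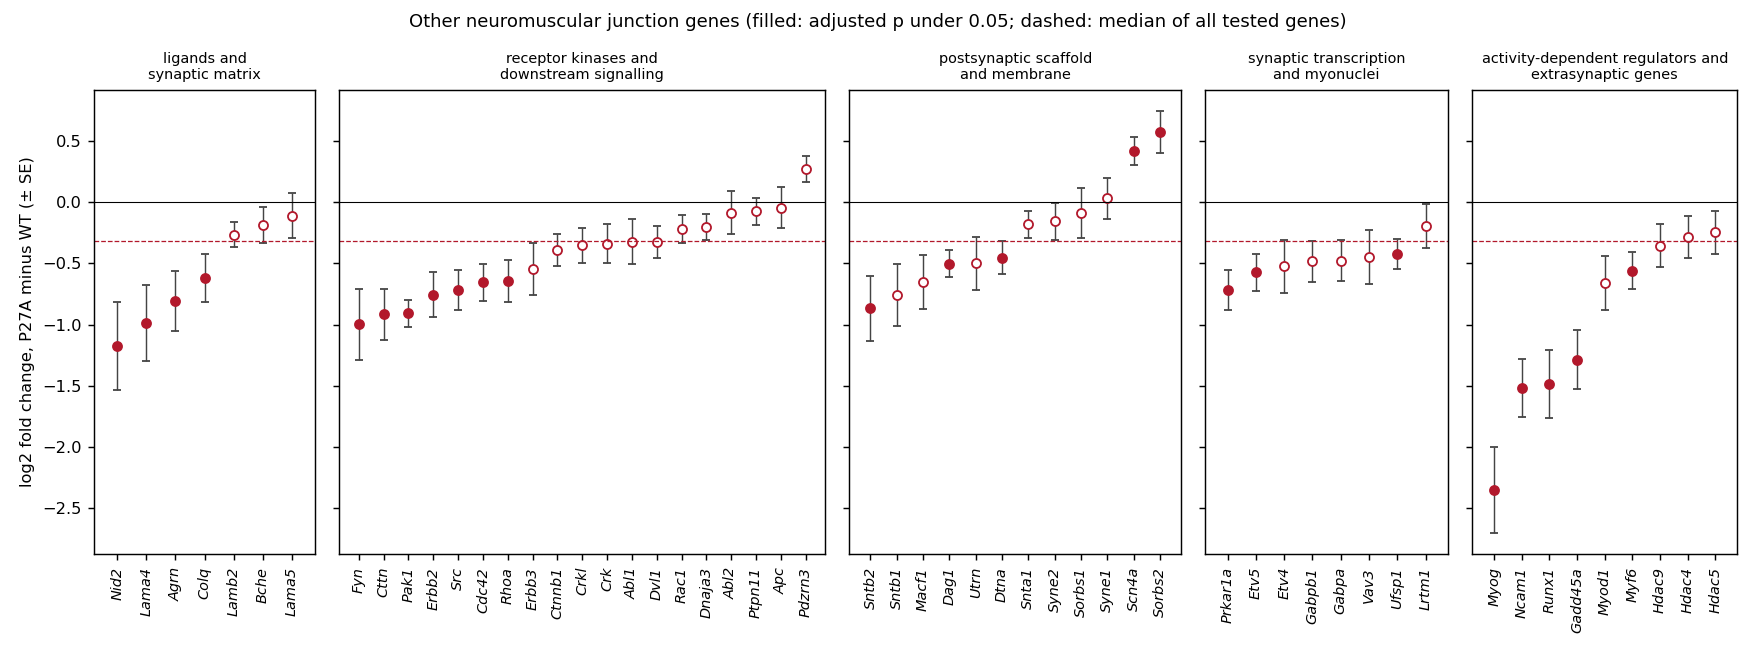
Log2 fold change (LrpprcP27A minus LrpprcWT on log2(TPM + 1), ± SE) of the 55 further junction genes that were tested, in 5 lists, with filled points for limma adjusted p under 0.05 and the median of all tested genes dashed. Myog, Ncam1, Runx1 and Gadd45a lie lowest, at -2.35 to -1.29, and Sorbs2 and Scn4a are the 2 filled points above 0.

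Markers of the tissue and of other cells were summed per library. Mature fibre genes (Acta1, Ckm, Mb and 4 others) summed to between 90396 and 98262 TPM with LrpprcWT and between 86820 and 95939 TPM with LrpprcP27A. These sums are carried by a few very abundant genes, and of the 7 genes Myh2, a fast myosin, fell from 317 ± 57.3 to 147 ± 59.4 TPM (adjusted p = 0.0236) on the deposited scale and 0 were called after median-of-ratios scaling. Genes of regenerating or immature fibres moved with the receptor subunits. Myh3, Myh8, Mymk and Mymx all fell, also after median-of-ratios scaling, and their sum ranged from 30.4 to 95.6 TPM with LrpprcWT and from 3.52 to 13.9 TPM with LrpprcP27A. Without the LrpprcWT library of replicate 3 none of these genes was called (limma adjusted p = 0.108, 0.0889, 0.0905 and 0.0802 in that order). Mymx passed the filter only through the LrpprcWT libraries.

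Other cell types moved as well. Macrophage markers (5 of 5 fell) summed to between 77.1 and 172 TPM with LrpprcWT and between 27.1 and 60.1 TPM with LrpprcP27A, and fibro-adipogenic markers (4 of 4 fell) to between 468 and 735 TPM and between 132 and 280 TPM. Satellite cell markers summed to between 14.6 and 16.0 TPM with LrpprcWT and to 11.9 TPM in each LrpprcP27A library, and 2 of the 3 tested fell. Of these 2, Myf5 (2.24 ± 0.391 and 0.777 ± 0.205 TPM) passed the filter only through the LrpprcWT libraries. Endothelial markers (1 of 4 fell, close to the share of all tested genes) ranged from 147 to 273 TPM and from 108 to 152 TPM. Schwann cell markers, of which 0 of the 4 tested were called, overlapped between groups (21.4 to 40.4 TPM and 18.4 to 37.9 TPM). After median-of-ratios scaling 2 of 5 macrophage, 2 of 4 fibro-adipogenic, 1 of 3 satellite cell (Myf5) and 0 of 4 endothelial markers fell. Of all tested genes 6.03% did. None of the markers of other cell types that fell on the deposited scale was called without the LrpprcWT library of replicate 3. The part of these cells in the decrease of the receptor subunits was not tested, and in whole muscle fewer cells of a type and less RNA per cell cannot be told apart.

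By Pearson correlation of log2(TPM + 1) over the 6 libraries, the 5 genes most like Chrng were Tmem205 (r = 0.9983), Tmem101, Lamb2, Rpl28 and Chrna1 (r = 0.9972). The 5 most like Chrne were 4931406C07Rik (r = 0.9991), Haus4, Rflnb, Pced1b and Fam53b (r = 0.9906). With 6 libraries in 2 groups and 1 shared TPM scale such values are common, as 2799 genes had an r above 0.9 with Chrng and 963 with Chrne.

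The library kit does not mark strand, so reads of antisense genes are not separable. In the GENCODE annotation of GRCm39, 601 exonic bases of Chrna1 (13.2%; chromosome 2, 73393557 to 73410835) are shared with the antisense gene Gm30940, and 302 exonic bases of Ache (5.78%) with Gm57304. Neither antisense gene was analysed here. Chrnb1, Chrnd, Chrng, Chrne, Lrp4 and Dok7 share no exonic base with another annotated gene.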

How the data were processed

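RNA was sequenced from 6 TA muscles. Reads were trimmed and mapped to GRCm39 by the authors (CLC Genomics Workbench), who deposited 1 TPM value per gene and library without normalizing further between libraries. Each library sums to 1000000, so depth and counting error are unknown. All 6 columns matched a sample.

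From the deposited TPM, log2(TPM + 1) was compared with limma 3.58.1 in R 4.3.3 (trended empirical Bayes, unpaired, two-sided, Benjamini-Hochberg over 11611 genes with mean TPM of at least 1). The study's Kruskal-Wallis test cannot pass an adjustment with 3 against 3 and was kept as an alternative. Libraries with the same number were also fitted as pairs. The pairing comes from the library numbers in the labels and the contralateral muscles of the study. Across genes the deviations of same-numbered libraries from their group means had correlations of 0.363, 0.528 and 0.356. Those of differently numbered libraries ranged from -0.362 to 0.00402. The study states that its replicates come from distinct mice, so libraries of 1 group stand for different mice. The unpaired fit takes all libraries as independent, although contralateral muscles of 1 mouse may be in both groups. Its p-values set the difference against the spread between libraries within a group.

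The members and lists were chosen with earlier results of these data known. All members were named, and in each further list the largest called decrease and increase, with Agrn, Colq, Etv5, Myog and Hdac4 in any case. Nrg1 was not analysed here, and 1 listed gene is not reported here. Lama4, Dtna, Dag1, Ufsp1, Ncam1, Runx1, Gadd45a, Myf6, Scn4a, Pdzrn3, Myh2 and Dach2 were named after their values were seen. The fit was run on simulated data with independent values and large changes in well-expressed genes only. That simulation held no pairs and no shift shared by a library, so it does not test these features. The alternatives were a pseudocount of 0.1, no filter or a minimum mean TPM of 5, no trend, no moderation, the block alone or on median-of-ratios values, 3 other scalings, and each library left out. Promoter windows are from RefSeq (GRCm38.p6), matched by symbol for 7 of the 10 members, and gene positions from GENCODE vM39.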

Additional observations from a re-analysis of the deposited data

How the results depend on the processing

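The direction of 9 of the 10 members held under each alternative run, and that of Rapsn turned to 0.014 without mitochondrial and ribosomal RNA genes, 0.16 with quantile normalization and 0.19 under median-of-ratios scaling, whether or not the replicate block was used. The count of members called lower, 5, became 9 with the replicate block, 3 at a mean TPM of at least 5 (7 members tested), and 0 without a filter (limma, 8 at an unadjusted p under 0.05), without moderation (6 unadjusted) and with the Kruskal-Wallis test (7 unadjusted). It ranged from 1 to 9 with 1 library left out. Without a filter 42 genes in all were called lower, and the adjusted p of the 4 subunits that fell ranged from 0.0553 to 0.0604. Of the further junction genes, 22 lower became 36 with the block, 14 at a mean TPM of at least 5, 1 without a filter, 0 without moderation, 0 with Kruskal-Wallis, 6 after leaving out mitochondrial and ribosomal RNA genes, 6 with quantile normalization and 8 with median-of-ratios scaling, and ranged from 0 (without LrpprcWT replicate 3) to 39 (without LrpprcWT replicate 2). The 2 higher became 0 without a filter, without moderation and with Kruskal-Wallis, 1 at a mean TPM of at least 5 and 5 with the block and median-of-ratios scaling together, and ranged from 0 to 3 with 1 library left out. The cause of these changes was not tested, except that a higher minimum tests fewer genes. The paired comparison of Chrng with Chrne gave p = 0.25 (exact sign-flip permutation test), the smallest that 3 pairs allow. TPM keeps no depth, which leaves the precision of low values such as Chrng unknown.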
